A study of Mus musculus with 8 samples.

Results

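The respiratory chain and the ATP synthase are the enzymes of the inner mitochondrial membrane that turn electrons from food into ATP, and their nuclear-encoded subunit genes were compared here between p16 knockout and p16 wild type hepatocytes. Members were taken by gene symbol: the Nduf subunit genes of complex I, Sdha to Sdhd of complex II, the Uqcr genes and Cyc1 of complex III, Cycs, the Cox4 to Cox8 genes of complex IV and the Atp5 genes of complex V. This rule found 83 genes of the 22180 that the array names, of which 34 carry Nduf symbols, 4 belong to complex II, 9 to complex III, 17 to complex IV and 18 to complex V, with Cycs as the remaining 1. The symbol rule uses no measured value, but the set was chosen with earlier results of these data known, and for a gene with several rows the row of highest mean was kept.

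Complexes I and II pass electrons from NADH and succinate to coenzyme Q, complex III hands them to cytochrome c, and complex IV gives them to oxygen. Complexes I, III and IV pump protons out of the mitochondrial matrix, and complex V, the ATP synthase, lets them flow back to make ATP. Complex II is encoded by the nucleus alone, while the other complexes also hold subunits made from mitochondrial DNA. Hepatocytes are rich in mitochondria and rely on them for gluconeogenesis, the urea cycle and fat oxidation.

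The cells were primary hepatocytes freed by collagenase perfusion from p16-/- mice and their p16+/+ littermates, with 4 samples and so 4 arrays per genotype. p16, a product of Cdkn2a, inhibits the kinases CDK4 and CDK6. Both groups attached for 16 h in Williams E medium containing 10% serum, 100 nM insulin and 25 nM dexamethasone, then spent 8 h in DMEM with 1 mM glucose and 0.1% albumin, and RNA was collected at 24 h. Replicates are described as biological, with no statement on how many animals they came from, so the p-values cover only the variation among these 8 samples, which may be partly technical. The labels give no age, sex or strain, nor the part of the gene that is deleted.

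Array medians lay between 3.76 and 3.88 on the log2 scale, and arrays correlated at 0.985 to 0.993 within a genotype and at 0.973 to 0.983 between genotypes. The only row for Cdkn2a read 4.16 to 4.79 on the wild type and 4.27 to 4.91 on the knockout arrays; which transcripts it covers is not given, so it does not check the genotype. Markers of mature hepatocytes were well measured, with list means of 8.59 to 8.79 on wild type and 9.63 to 9.85 on knockout arrays, and 13 of 18 tested members rose while none fell. Of the sinusoidal endothelial markers 13 of 14 fell, with list means of 5.82 to 5.97 against 4.76 to 4.85, and of the Kupffer cell markers 11 of 13 fell and 1 rose, with 5.34 to 5.45 against 4.51 to 4.64. Stellate cell markers had 5 falls and 1 rise among 11, with 5.15 to 5.22 against 4.52 to 4.67. None of 4 cholangiocyte, 4 lymphocyte and 1 erythroid markers tested passed, and all 6 neutrophil markers lay below the level filter. The part that these shifts play in the results below was not tested, and in bulk RNA a change in the number of cells of a type and a change of RNA per cell cannot be told apart.

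Across the subunit genes, 5 of 78 tested members rose in the knockout, none fell and 73 did not pass (limma, adjusted p under 0.05 over all 15380 genes tested). The risers were Ndufa4l2, Ndufa8, Ndufb9 and Ndufs3, all with Nduf symbols, and Atp5md of complex V. They make up 6.41% of the tested members, close to the 7.02% of all genes tested that rose, while 6.76% of all genes fell and 13.8% changed in either direction. Changes below are log2 differences, knockout minus wild type, where 1 is a doubling, and each level is a log2 value that can be compared between arrays for one gene but not between genes. The count was 3 when wild type replicate 1, 2 or 4 or knockout replicate 1 was left out. The 5 members below the level filter of 3.32 were the tissue-specific genes Cox7b2, Cox8b and Cox8c and the pseudogenes Atp5c1-ps and Uqcrh-ps1.

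Most members that missed the threshold lay slightly above 0. The change was positive for 64 of 78 members, or 82.1%, with a median of 0.08, whereas over all genes tested 45.2% were positive and the median was -0.02. Knockout arrays all lay above wild type arrays for 16 members (20.5%, against 9.13% of all genes tested) and all below for none (against 11.1%). At an unadjusted p under 0.05, 15 members were higher (19.2%, against 12.2% of all genes tested) and none was lower (against 14.7%). Among the 3845 brightest genes tested, which hold 51 of the members, 44.0% of genes were positive with a median of -0.04, while 45 of those 51 members were positive with a median of 0.10. Across the 20 alternative settings and left-out arrays the positive share of members ran from 69.2% to 84.0%. Averaged over the 78 members on each array, with every gene centred on its mean, wild type arrays lay at -0.11 to -0.0097. Knockout arrays lay at -0.0092 to 0.09, so the ranges barely missed each other. With median centring they overlapped (wild type -0.16 to 0.04, knockout -0.0009 to 0.12), while cyclic loess and quantile normalization kept them apart. The members' directions are not independent of each other, and no test was made of the group.

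**Figure D1:**
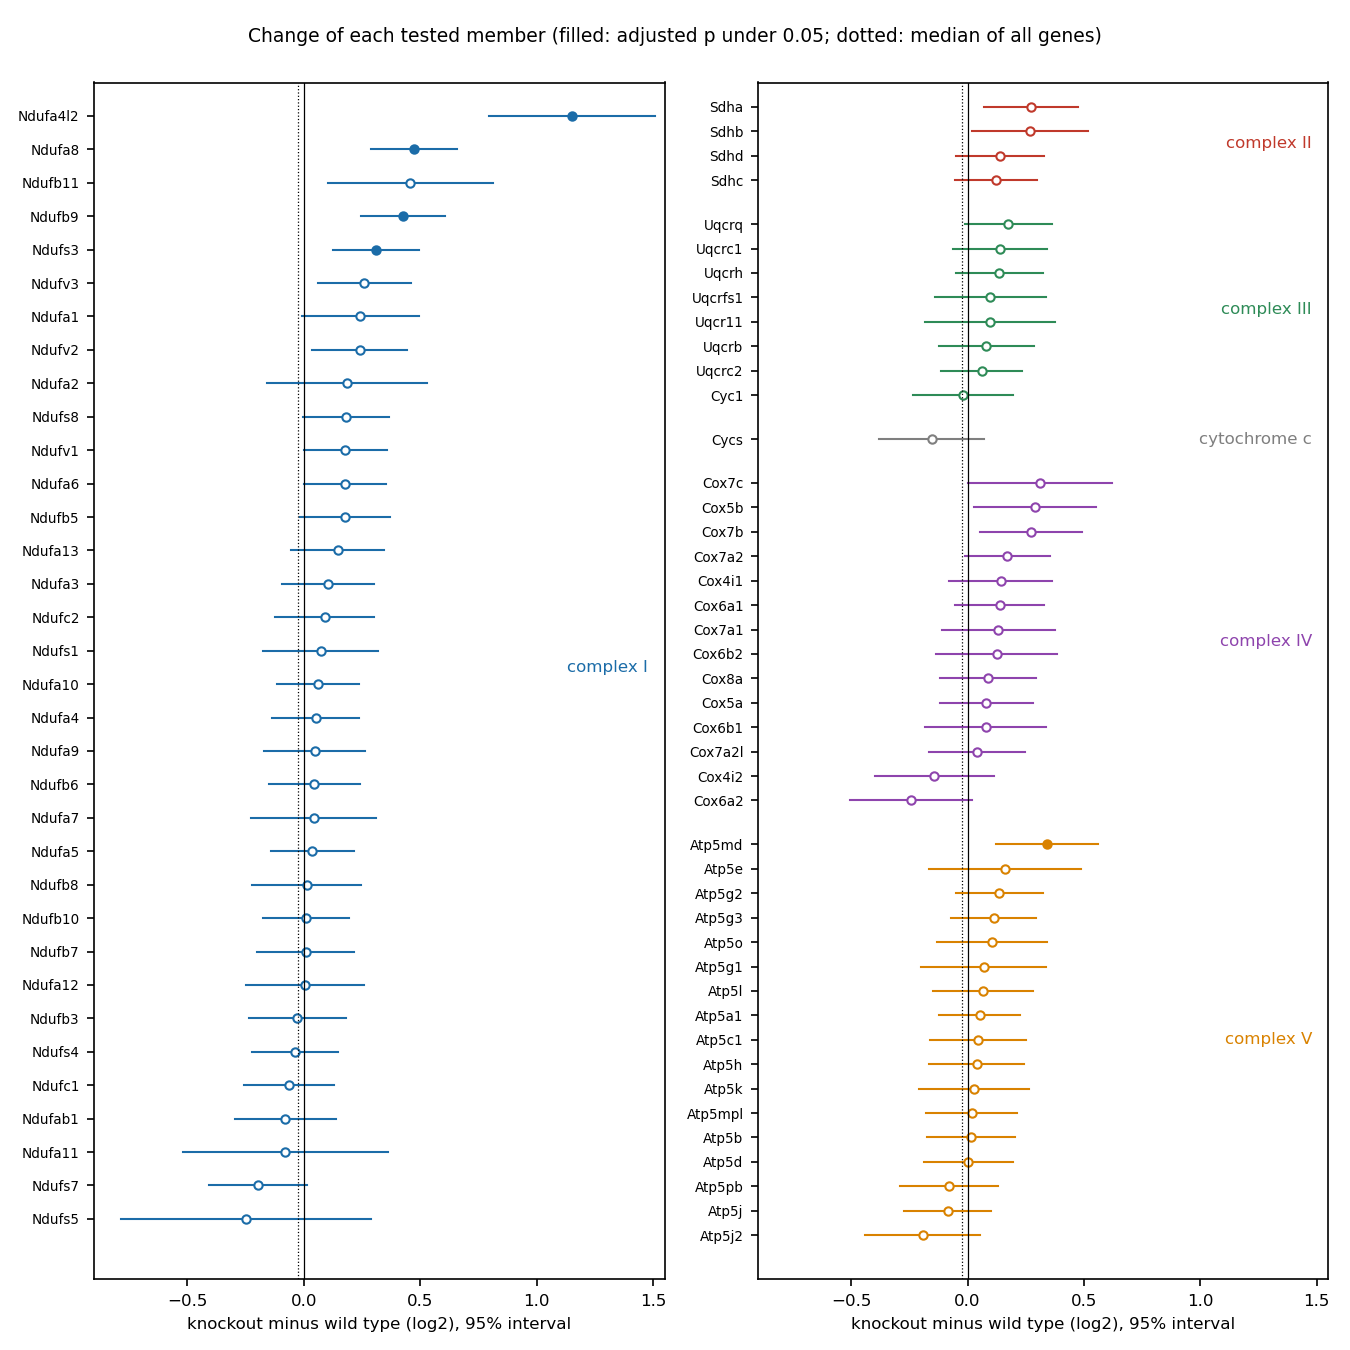
Change of each of the 78 tested members, as the log2 difference of knockout minus wild type, with its 95% interval from limma. Filled points passed the test, and the dotted line marks the median of all genes tested, -0.02. Ndufa4l2 stands apart at 1.15, and most other points lie between 0 and 0.3.

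Promoter windows are shown for 3 of the 5 members that rose, because these genes moved in the same direction. Ndufa4l2 and Ndufb9, whose calls held in all 20 alternatives, had no matched window and so are not shown. The calls of Ndufs3 and Atp5md were each lost in 11 of 20. RefSeq windows of GRCm38.p6, which run from 250 bases before to 50 bases after a gene's start, were matched by gene identifier for 66 of the 83 members. The 250 bases before the start are printed for Ndufa8 (chr2:36049339-36049588, minus strand), Ndufs3 (chr2:90904722-90904971, minus strand) and Atp5md (chr19:47090648-47090897, minus strand), 5′ to 3′ on the gene's strand. Capitals mark matches to the motif letters searched on both strands, of NRF1 (GCGCATGCG), the ETS family that includes GABP (CCGGAAG), YY1 (AAGATGGCG), the estrogen-related receptors (TCAAGGTCA) and CREB (TGACGTCA).
Ndufa8: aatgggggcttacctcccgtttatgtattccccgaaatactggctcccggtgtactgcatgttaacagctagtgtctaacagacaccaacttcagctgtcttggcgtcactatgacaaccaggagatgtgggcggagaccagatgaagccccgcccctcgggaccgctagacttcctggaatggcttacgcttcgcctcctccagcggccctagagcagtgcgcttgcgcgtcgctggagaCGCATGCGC
Ndufs3: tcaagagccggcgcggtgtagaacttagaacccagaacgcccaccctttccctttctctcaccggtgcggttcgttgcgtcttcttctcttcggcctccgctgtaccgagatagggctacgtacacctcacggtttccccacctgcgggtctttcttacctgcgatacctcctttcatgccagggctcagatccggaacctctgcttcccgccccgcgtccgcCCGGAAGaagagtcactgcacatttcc
Atp5md: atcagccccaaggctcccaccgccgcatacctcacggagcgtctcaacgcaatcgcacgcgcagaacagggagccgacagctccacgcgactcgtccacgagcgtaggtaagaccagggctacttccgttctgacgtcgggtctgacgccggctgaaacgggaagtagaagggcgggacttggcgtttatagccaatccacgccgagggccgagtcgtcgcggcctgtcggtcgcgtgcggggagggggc

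In Ndufa8 the NRF1 letters begin 9 bases before the start on the opposite strand, and in Ndufs3 the ETS letters begin 27 bases before it. Atp5md has no match in the printed stretch and an ETS match on the opposite strand that begins at base 3 after the start; Ndufs3 has a second one at base 2. NRF1 and GABP are transcription factors known to bind promoters of many respiratory genes. Over the 66 member genes, 9 held the NRF1 letters in a window (13.6%, against 2.61% of 17491 protein-coding genes with a window), 17 the ETS letters (25.8% against 12.9%), 6 the YY1 letters (9.09% against 2.14%), 2 the receptor letters (3.03% against 0.377%) and 4 the CREB letters (6.06% against 2.54%). No matches of different motifs overlapped in the member windows. The median change was 0.10 for the 9 tested members with NRF1 letters and 0.09 for the 55 without, and 0.10 for the 17 with ETS letters and 0.08 for the 47 without. Of the 6 with YY1 letters (Atp5j, Atp5j2, Ndufa9, Ndufc1, Ndufs4 and Ndufs7) 1 was above 0, at a median of -0.07, against 52 of the 58 without, at 0.10. A match says only that the letters are present, and these differences between few genes were not tested.

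Ndufa4l2 had the largest change of any member. It is a paralog of NDUFA4 that is known as a target of the hypoxia-inducible factor and as a brake on complex I activity, and it is not a standard subunit. It read 7.82, 8.54, 8.46 and 8.62 on the wild type arrays and 9.51, 9.49, 9.69 and 9.36 on the knockout arrays. Every knockout array was above every wild type array, and wild type replicate 1 was the lowest of all. Its group mean was 8.36 ± 0.36 in wild type and 9.51 ± 0.13 in knockout cells (SD, n = 4), a rise of 1.15 (SE 0.16) or 2.22-fold with an adjusted p of 7.54e-04 by limma. The call held under all 20 alternative settings, with adjusted p-values up to 0.003. Its namesake Ndufa4, whose protein is now counted with complex IV, differed by 0.05 (SE 0.08, 95% interval -0.14 to 0.24), with overlapping groups.

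Among the 32 true subunits of complex I, the proton-pumping NADH dehydrogenase, 3 rose. They were Ndufa8 and Ndufb9, both accessory subunits, and Ndufs3, a core subunit of the arm that carries electrons to coenzyme Q. With Ndufa4l2, 4 of 34 genes with Nduf symbols rose, or 11.8%, against 7.02% of all genes tested. Ndufa8 read 8.44, 8.61, 8.40 and 8.45 on the wild type and 8.92, 8.98, 8.98 and 8.93 on the knockout arrays. Its groups were far apart for their spread, and the change was 0.48 (SE 0.08, 1.39-fold, adjusted p = 0.0032 by limma). The array has a second Ndufa8 row, which read 6.28 to 6.62 in wild type and 6.24 to 7.06 in knockout cells with a difference of 0.17 and overlapping groups; with the mean of both rows the change was 0.32 and the call was lost (adjusted p = 0.0681).

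Ndufb9 read 10.68, 10.63, 10.68 and 10.63 in wild type and 11.15, 10.97, 11.09 and 11.10 in knockout cells. The groups did not overlap, the change was 0.43 (SE 0.08, 1.34-fold, limma adjusted p = 0.0053), and the call held in all 20 alternatives. Ndufs3 was dimmer, at 4.84, 4.76, 4.91 and 4.86 against 5.17, 5.16, 5.05 and 5.24. Its groups did not overlap either, but its change of 0.31 (SE 0.08, adjusted p = 0.0313 by limma) sat near the threshold. That call was lost in 11 of 20 alternatives, among them the removal of wild type replicate 1 (0.078), 2 (0.0824), 3 (0.0511) or 4 (0.0588) or of knockout replicate 1 (0.0792) or 2 (0.0768).

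The rest of complex I formed a graded series with no falls past the threshold. Of the 6 core subunits tested, Ndufs3 rose and the others ranged from -0.20 for Ndufs7 to 0.24 for Ndufv2, the latter 2 with adjusted p-values of 0.223 and 0.118. Ndufv1, Ndufv2 and Ndufs8, which belong to the peripheral arm, each had all knockout arrays above all wild type arrays, with changes of 0.18 (SE 0.08), 0.24 (SE 0.09) and 0.18 (SE 0.08) that missed the threshold. Of the 34 genes with Nduf symbols, 10 had such groups (29.4%, against 9.13% of all genes tested), among them 5 accessory subunits. Of 26 accessory subunits 2 rose (7.69%, against 7.02% of all genes tested) and 24 did not pass, with a median of 0.05. Ndufv3 was the closest of these (0.26, SE 0.09, adjusted p = 0.084), and it passed with the 60th percentile filter, cyclic loess or array weights (0.0491, 0.0392 and 0.038).

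Ndufb11, an X-linked accessory subunit, read 4.69, 4.89, 4.70 and 4.22 on the wild type and 5.10, 4.71, 5.23 and 5.29 on the knockout arrays. Knockout replicate 2 lay among the wild type values, and the change of 0.46 had an SE of 0.16 and an adjusted p of 0.0877; without that array it was 0.58 and passed (0.0375). Ndufs5 was at -0.25, the lowest change of any tested member, with an SE of 0.24 on dim values of 3.23 to 3.92 in wild type and 2.81 to 3.82 in knockout cells. Ndufa12 had a second row whose knockout values (5.95 to 6.12) were all below the wild type ones (6.21 to 6.51), while the brighter row kept here differed by 0.01, so the direction for this gene depends on the row.

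All 4 genes of complex II, succinate dehydrogenase, were above 0 and none passed the test. Sdha, the flavoprotein that oxidises succinate, read 9.80, 9.62, 9.80 and 9.76 in wild type and 10.04, 10.06, 10.12 and 9.86 in knockout cells. The groups did not overlap, and knockout replicate 4 was the lowest of its group. The change was 0.27 (SE 0.09, limma adjusted p = 0.0755), and it passed in 7 of 20 alternatives, including the removal of knockout replicate 4 (0.031). Sdhb, the iron-sulfur subunit, read 8.45, 8.22, 8.21 and 8.04 against 8.59, 8.34, 8.39 and 8.66, with overlap through wild type replicate 1 and a change of 0.27 (SE 0.11, adjusted p = 0.155).

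The membrane anchors of complex II had smaller differences. Sdhc read 8.42, 8.40, 8.48 and 8.35 against 8.56, 8.54, 8.57 and 8.46, a change of 0.12 (95% interval -0.05 to 0.30). Sdhd read 8.93, 8.75, 8.84 and 8.88 against 9.02, 8.90, 8.95 and 9.09, a change of 0.14 (95% interval -0.05 to 0.33). In both, 1 array of each group reached into the other. Complex II had the highest median change, 0.20, of the complexes.

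**Figure D2:**
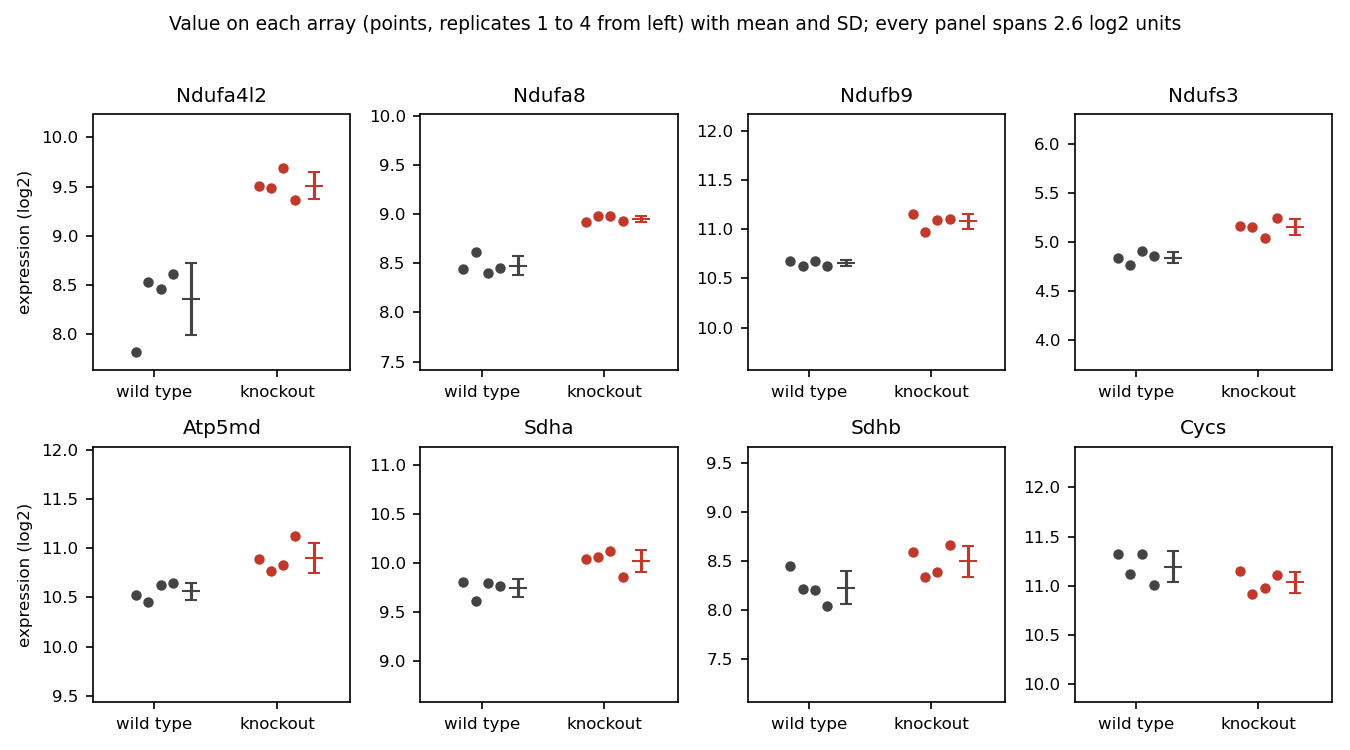
Log2 expression on each array for the 5 members that rose and for Sdha, Sdhb and Cycs; bars give the mean and SD of 4 arrays. The first 6 genes show no overlap between the genotypes, while Sdhb and Cycs do.

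Complex III, the cytochrome bc1 complex, had no change past the threshold among 8 tested genes, whose median was 0.10. Uqcrq, a small subunit, read 5.37, 5.32, 5.39 and 5.26 in wild type and 5.50, 5.43, 5.48 and 5.63 in knockout cells. Its groups did not overlap, yet the change of 0.17 (SE 0.08) had an adjusted p of 0.216. Uqcrh, the hinge protein, read 7.20, 7.28, 7.32 and 7.29 against 7.48, 7.28, 7.41 and 7.47, with knockout replicate 2 within the wild type range and a change of 0.14 (SE 0.09, adjusted p = 0.352). Uqcrb read 10.78, 10.60, 10.76 and 10.60 against 10.91, 10.68, 10.69 and 10.78, a change of 0.08 (SE 0.09).

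The redox-active subunits of complex III had changes of -0.02 (SE 0.10) for Cyc1, which encodes cytochrome c1, and 0.10 (SE 0.11) for the iron-sulfur protein gene Uqcrfs1. The core proteins Uqcrc1 and Uqcrc2 were at 0.14 (SE 0.09) and 0.06 (SE 0.08).

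Cycs, the mobile cytochrome c that links complexes III and IV, lay on the other side of 0. It read 11.32, 11.12, 11.33 and 11.01 in wild type and 11.15, 10.91, 10.98 and 11.11 in knockout cells. The groups overlapped, and the change of -0.16 (SE 0.10, 95% interval -0.38 to 0.07, limma adjusted p = 0.384) did not pass. The array has 5 rows for Cycs, 2 of them with identical values, and 4 of the 5 differed by -0.13 to -0.21 while 1 differed by 0.04. Cytochrome c has many processed pseudogenes, so its rows may share targets.

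Complex IV, cytochrome c oxidase, had 14 tested members, of which 12 were above 0 and none passed the test; the median was 0.13. Cox7b read 7.71, 7.59, 7.90 and 7.50 in wild type and 7.94, 7.96, 7.96 and 7.92 in knockout cells. The groups did not overlap, and wild type replicate 3 came closest to the knockout values. The change was 0.27 (SE 0.10, adjusted p = 0.1), and without wild type replicate 3 it was 0.35 and passed (0.0409). Cox5b read 9.19, 8.77, 9.16 and 9.04 against 9.51, 9.43, 9.20 and 9.20, a change of 0.29 (SE 0.12, adjusted p = 0.142). The wild type and knockout ranges of Cox5b nearly touched, and a second, dimmer Cox5b row differed by -0.02.

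Complex IV has pairs of ubiquitous and tissue-restricted isoforms. All 6 ubiquitous forms tested were above 0 and the 4 tissue-restricted forms tested lay 2 above and 2 below it, and none of these genes passed. Cox4i1, the ubiquitous subunit 4, read 9.41, 9.25, 9.32 and 9.38 against 9.49, 9.27, 9.49 and 9.68, a change of 0.14 (SE 0.10), while Cox4i2, known from lung and hypoxia, read 4.08, 4.42, 4.20 and 4.38 against 4.30, 3.94, 4.27 and 4.01, a change of -0.14 (SE 0.12). Cox6a1, the liver form of subunit 6a, read 11.65, 11.83, 11.78 and 11.82 against 11.81, 11.91, 12.02 and 11.89, a change of 0.14 (SE 0.09). Cox6a2, the heart and muscle form, read 5.72, 5.84, 5.69 and 5.58 against 5.16, 5.43, 5.59 and 5.68, a change of -0.24 (SE 0.12, adjusted p = 0.219), the lowest in the complex. The groups overlapped in all 4 genes. In the pair of subunit 6b the tissue-restricted form had the slightly larger change. Ubiquitous Cox6b1 read 8.53, 8.39, 8.55 and 8.14 against 8.67, 8.50, 8.27 and 8.48, a change of 0.08 (SE 0.12). Cox6b2, the testis form, read 3.67, 4.15, 4.00 and 3.91 against 3.93, 4.07, 3.98 and 4.25, a change of 0.12 (SE 0.12), and the groups of both overlapped.

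Cox7a2, the liver form of subunit 7a, read 8.93, 8.80, 8.88 and 8.84 against 9.07, 8.98, 8.96 and 9.13. These groups did not overlap, and the change was 0.17 (SE 0.08, limma adjusted p = 0.219). Its muscle counterpart Cox7a1 read 4.72, 4.82, 4.63 and 4.38 against 4.65, 4.91, 4.78 and 4.72, overlapping, with a change of 0.13 (SE 0.11). Cox8a, the ubiquitous subunit 8, read 9.97, 10.16, 10.18 and 10.11 against 10.02, 10.26, 10.26 and 10.22, a change of 0.09 (SE 0.09), and muscle Cox8b was below the level filter, at 2.57, 2.43, 2.57 and 2.65 against 2.42, 2.44, 2.19 and 2.83. The supercomplex factor gene Cox7a2l differed by 0.04 (SE 0.09).

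Complex V had 17 tested members, of which Atp5md rose (5.88%, against 7.02% of all genes tested), none fell and 16 did not pass. Atp5md encodes DAPIT, a small membrane subunit that helps ATP synthase form dimers. It read 10.52, 10.46, 10.62 and 10.64 in wild type and 10.89, 10.77, 10.83 and 11.12 in knockout cells. The groups did not overlap, and knockout replicate 4 was the highest array. The change was 0.34 (SE 0.10, 1.27-fold, limma adjusted p = 0.0433), and the call was lost in 11 of 20 alternatives. Those included all 8 removals of 1 array: wild type replicate 1 (0.108), 2 (0.111), 3 (0.0698) or 4 (0.0588) and knockout replicate 1 (0.0893), 2 (0.0519), 3 (0.0615) or 4 (0.0671).

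The catalytic F1 head of complex V differed little. Its 5 genes (Atp5a1, Atp5b, Atp5c1, Atp5d and Atp5e) differed by 0.0034 to 0.16, with overlapping groups. Atp5b, the catalytic beta subunit, read 11.91, 11.77, 11.88 and 11.84 against 11.92, 11.93, 11.89 and 11.73, a change of 0.02 (SE 0.09, 95% interval -0.17 to 0.21) whose sign turned under 4 alternatives. The 3 genes of the rotating c ring, Atp5g1 to Atp5g3, were at 0.07 to 0.14. The 4 stalk genes lay on both sides of 0, from -0.09 for Atp5j to 0.11 for Atp5o. Atp5j2, the small subunit f, read 4.69, 4.97, 4.45 and 4.80 against 4.52, 4.60, 4.52 and 4.50, with overlap and a change of -0.19 (SE 0.11, adjusted p = 0.312), the lowest in the complex. The median of complex V, 0.04, was the lowest of the 5 complexes.

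Averaged over its tested genes on each array, with every gene centred on its mean of the 8 arrays, complex II separated the genotypes most widely, at -0.16 to -0.01 on wild type and 0.05 to 0.15 on knockout arrays. Complex I lay at -0.13 to -0.02 and -0.0094 to 0.11, and complex IV at -0.14 to 0.0020 and 0.01 to 0.11; both pairs of ranges barely missed each other, and complex I overlapped without Ndufa4 and Ndufa4l2 (-0.13 to -0.01 and -0.02 to 0.10). Complexes III (-0.11 to 0.0026 and -0.02 to 0.12) and V (-0.06 to 0.01 and -0.02 to 0.06) overlapped. In the deposited values knockout replicate 2 was the lowest knockout array in complexes I to V, and wild type replicate 2 or 4 the lowest wild type array. This order depended on the scaling: knockout replicate 4 was lowest in complexes II, III and V with median centring. With cyclic loess knockout replicate 3 was lowest in complexes II and III. With median centring the ranges of complexes I and IV overlapped, those of complex II stayed apart under cyclic loess, quantile normalization and median centring, and cyclic loess also parted those of III and V.

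**Figure D3:**
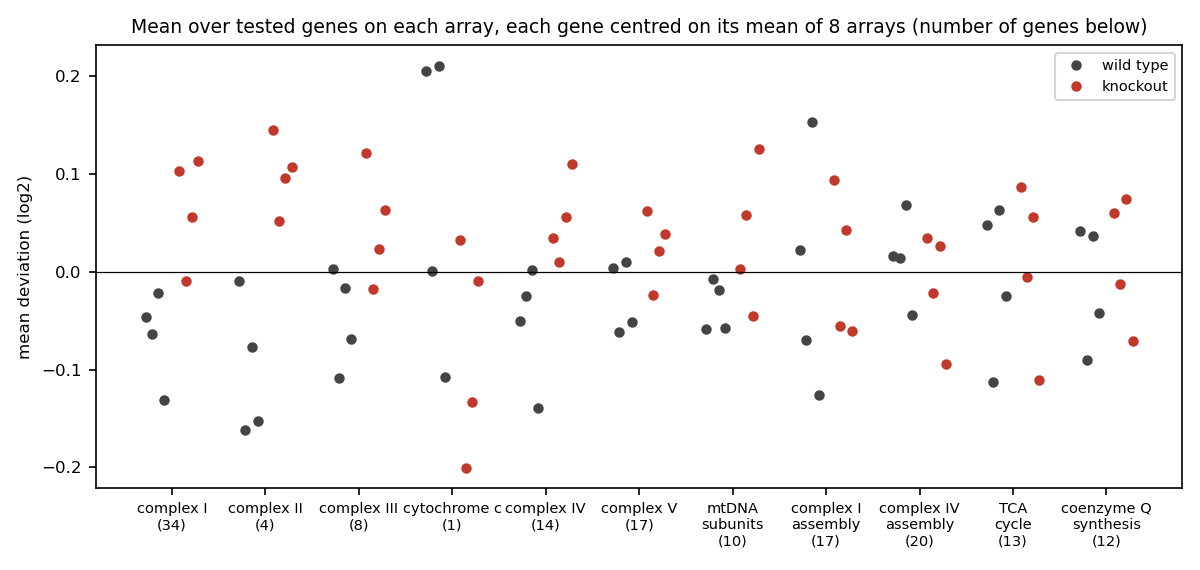
Mean deviation on each array for the tested genes of each complex, for Cycs and for 5 related lists, with every gene centred on its mean over 8 arrays. Complex II has all knockout arrays (0.05 to 0.15) above all wild type arrays (-0.16 to -0.01), while the ranges overlap in the lists of assembly factors, TCA cycle and coenzyme Q genes.

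The subunits that mitochondrial DNA encodes had no call among the 10 with a row of their own, with a median of 0.04 and 9 of 10 above 0. Their list means were 12.86 to 12.91 on wild type and 12.87 to 13.04 on knockout arrays, and the highest value of the whole table is 13.6. ND6, the 1 complex I subunit on the other strand of that DNA, had a change of 0.42 (SE 0.17, adjusted p = 0.141), with 11.22 on knockout replicate 4 against 10.35 to 10.58 on the other knockout and 10.09 to 10.39 on the wild type arrays.

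Assembly factors build the complexes without staying in them, and the list used here also held some related proteins. Among the 51 tested genes of that list, 3 rose, 1 fell and 24 were above 0, with a median of -0.03. The rises were 5.88% and the fall 1.96% of these genes, against 7.02% and 6.76% of all genes tested. Ndufaf3, a complex I assembly factor, rose by 0.50 (SE 0.12, limma adjusted p = 0.0193), and Timmdc1, which helps assemble its membrane arm, fell by 0.41 (SE 0.11, adjusted p = 0.0298). Cox20, a chaperone of subunit 2 of complex IV, rose by 0.35 (SE 0.09, adjusted p = 0.0253), and Higd1a, a mitochondrial membrane protein that is induced by hypoxia and binds complex IV, by 0.36 (SE 0.09, adjusted p = 0.0256). Leaving out 1 array ended the call for Ndufaf3 in 4 of 8 cases (wild type 1, 2 or 4 or knockout 1, up to 0.057). It ended that for Timmdc1 in 5 (wild type 1, 2 or 3 or knockout 2 or 4, up to 0.0923), that for Cox20 in 3 (wild type 1 or 4 or knockout 1, up to 0.0772) and that for Higd1a in 5 (wild type 1 or 2 or knockout 1, 2 or 3, up to 0.08). Over all 20 alternatives the call was lost in 4 for Ndufaf3, 7 for Timmdc1, 5 for Cox20 and 6 for Higd1a.

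Of 12 genes of coenzyme Q synthesis 1 rose (8.33%, against 7.02% of all genes tested). This was Coq8b, a kinase-like protein of that pathway (0.33, SE 0.09, limma adjusted p = 0.0357). It was lost in 10 of 20 alternatives, 6 of them without 1 array (wild type 1, 2 or 4 or knockout 1, 2 or 3, up to 0.103). Of 13 tested genes of the tricarboxylic acid cycle, which supplies NADH and succinate to the chain, 1 rose (7.69%) and 5 were above 0. Their median was -0.05. The riser was Cs, the citrate synthase that starts the cycle, at 9.14, 9.12, 9.30 and 9.16 in wild type and 9.62, 9.73, 9.69 and 9.37 in knockout cells. The groups did not overlap, and the change was 0.43 (SE 0.10, adjusted p = 0.017), which missed the threshold without wild type replicate 1 (0.0518) or knockout replicate 2 (0.0565). Of 9 tested carriers, channels, uncouplers and electron transfer flavoprotein genes none passed by limma (median -0.06). At an unadjusted p under 0.05, 3 were higher (33.3%, against 12.2% of all genes tested) and 1 was lower (against 14.7% of all genes). In 8 of 20 alternatives 1 to 3 genes of this list passed the adjusted threshold.

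Of 17 tested regulators of mitochondrial biogenesis, Ppargc1a rose, Twnk fell and 15 did not pass, with a median of -0.15. Each call was 5.88% of this list, against 7.02% of all genes tested that rose and 6.76% that fell. Ppargc1a, the coactivator that induces respiratory genes with NRF1, GABP and the estrogen-related receptors, read 5.44, 5.21, 5.47 and 5.52 in wild type and 6.61, 6.75, 6.62 and 6.11 in knockout cells. The groups did not overlap, knockout replicate 4 was the lowest of its group, and the change was 1.11 (SE 0.14, limma adjusted p = 3.42e-04). Its partners did not pass: Nrf1 was at 0.01 (95% interval -0.19 to 0.22), Gabpa at -0.15 (SE 0.10), Esrra at 0.19 (SE 0.11) and the related coactivator Ppargc1b at 0.05 (SE 0.13).

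Among genes that maintain mitochondrial DNA, Twnk, the helicase that unwinds it for replication, read 6.53, 6.29, 6.37 and 6.25 in wild type and 5.75, 5.70, 6.14 and 5.82 in knockout cells. These groups did not overlap, and the change was -0.50 (SE 0.11, limma adjusted p = 0.0135), a call that held in all 20 alternatives. Tfam, which packages and transcribes that DNA, was at -0.30 (SE 0.14, adjusted p = 0.194).

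**Figure D4:**
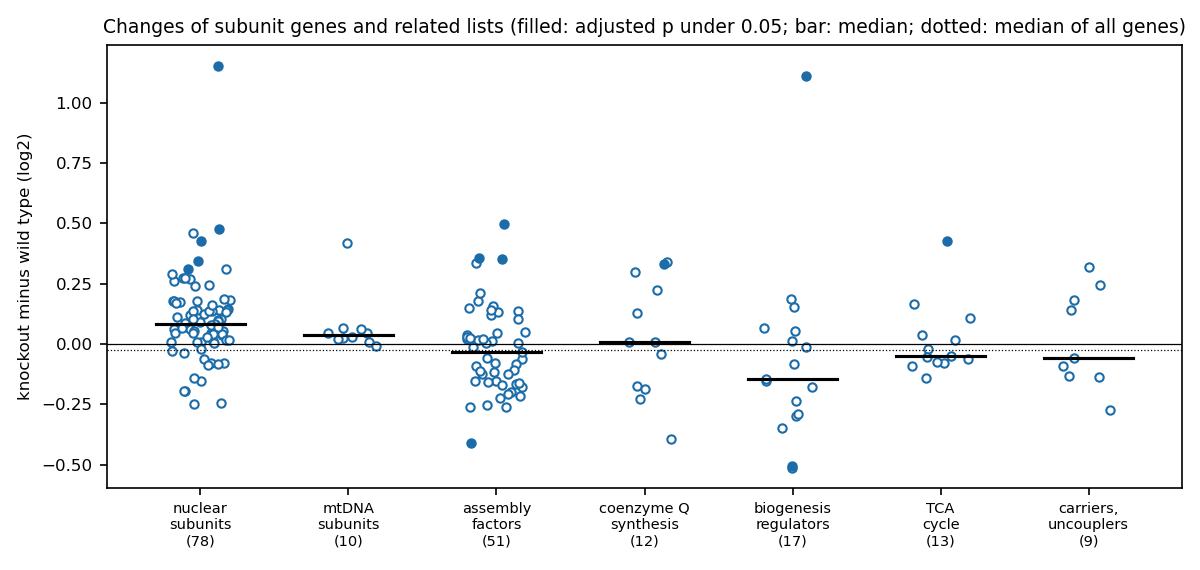
Change of each tested gene, as the log2 difference of knockout minus wild type, in the nuclear subunit genes and 6 related lists; filled points passed the test, bars are medians and the dotted line is the median of all genes tested. The subunit median of 0.08 lies above 0 and those of assembly factors (-0.03), regulators (-0.15) and TCA cycle genes (-0.05) below it.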

How the data were processed

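RNA of 8 samples was measured on gene arrays, 1 per sample. The authors deposited log2 values in a table of 41345 rows, made with RMA through the oligo package, per the submitters' processing notes. RMA includes quantile normalization, so a shift shared by all genes would not be seen. Of the rows, 23521 had 1 gene symbol in the platform annotation, 1814 several and 16010 none. For a gene with several rows, as 10 members have, the row of highest mean was kept. Subunits whose only rows carry several symbols, such as Ndufb4, Ndufs6, Uqcr10 and Cox6c, were not analysed here.

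Genes above the 40th percentile of row means were fitted in R 4.3.3 by the lmFit and eBayes functions of limma 3.58.1 (no trend, 6 residual and 5.05 prior degrees of freedom), and two-sided p-values were adjusted by Benjamini-Hochberg over all genes tested. In data simulated with the means and spreads of these genes, the fit recovered 1.49% of changes of 0.3. It recovered 35.8% of changes of 0.5 and 84.8% of changes of 1. A member that did not pass may therefore still differ by such small amounts. The simulation changed fewer genes than passed here, so its shares need not hold for the real data. Any member could be named. Every array is given for members past the threshold, the 2 of smallest p and the 1 of highest mean per complex, complex II, Cycs and the isoform pairs of complex IV subunits 4, 6a, 7a and 8; ND6 and the array values of Ndufb11, Cox6b1 and Cox6b2 were added after their values were seen. In related lists, genes past the threshold and 6 set regulators were named. Members and lists were chosen with earlier results of these data known. Cell type lists also held neutrophil and erythroid markers. Alternatives were other filters, row rules, scalings, variance models, array weights, a replicate block, thresholds and left-out arrays. The number of arrays limits the precision. Python 3.11.15 was used outside R.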

Additional observations from a re-analysis of the deposited data

Results flagged for a closer look

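Of 50 groups of 4 arrays examined for 25 members (those the naming rule gives in full), 1 had an array far from the other 3, where chance alone gives about 1 in 20 groups. For Cox8a, knockout replicate 1 read 10.02, against 10.22 to 10.26 on the other knockout arrays.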

How the results depend on the processing

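The count of members past the threshold, 5, was 3 without a filter, with median centring or at an adjusted p under 0.01, and 8 with cyclic loess or at an adjusted p under 0.1. It was 4 without Ndufa4l2, a setting added after seeing the data, and 3 to 5 without single arrays. Ndufa4l2 and Ndufb9 passed in all 20 refits. The count over all genes, 2119, was 1071 at an adjusted p under 0.01 and 1448 to 2165 without single arrays. For the related lists together, 8 genes passed in the main setting, 13 with the 60th percentile filter, 4 without a filter, 5 with median centring, 14 with an intensity trend, robust or not, and 2 to 9 without single arrays (2 without wild type replicate 1, 4 without wild type 2, 5 without wild type 4, 4 without knockout 1 or 2). The medians of complexes I to V and Cycs kept their sign in each setting run. Without single arrays they ran from 0.04 to 0.10 for I (main 0.07; 0.04 without knockout 1, 0.10 without wild type 1 or knockout 2), 0.17 to 0.23 for II, 0.05 to 0.12 for III (main 0.10; 0.05 without knockout 1), 0.08 to 0.15 for IV (main 0.13; 0.08 without knockout 4), 0.02 to 0.06 for V (main 0.04; 0.02 without wild type 2 or knockout 1) and -0.22 to -0.11 for Cycs. Atp5b turned to -0.0162 with quantile normalization and ranged from -0.0098 to 0.0625 without single arrays, being negative without wild type replicate 2 (-0.0098) or knockout replicate 1 (-0.0024) or 2 (-0.0036). The cause of these changes was not tested. Same-numbered samples had correlations of their deviations of 0.06, 0.02, 0.26 and 0.21. Wild type replicates 3 and 4 correlated best with the knockout array of their own number, while 1 and 2 did not. The numbers were not taken to pair the samples in the main fit. With the replicate block 4 members passed, Ndufs3 being lost (limma adjusted p = 0.0543).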
